A study of Mus musculus with 2 samples.

Results

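The 6 C-type lectin genes described here were read across the cells of 1 single-cell RNA-seq library. They are Cd209a, Cd209d, Cd209e and Cd209f of the Cd209 family, and the 2 galactose-type lectins Mgl2 and Clec10a. They were chosen by symbol, with earlier results of these data known, and make up 6 of 32285 gene rows. All 6 had UMIs, the molecular barcodes by which transcripts are counted. The study sorted CD64+ cells by flow cytometry from enzymatically digested thymus of adult C57BL/6 mice and profiled them with the 10x Genomics 3′ chemistry, in 1 library from 2021 and 1 from 2024. Both libraries are labelled as macrophages, with no other genotype, treatment or exact age. Cell barcodes that the libraries might share were not analysed here. The 2024 library (2815 barcodes, median 5312 UMIs) was used for depth only because its gene rows were not named in the files used here, so every gene value comes from the 2021 library alone. There are no replicates for these values and no test was run. Intervals are at the 95% level, exact binomial for shares and exact Poisson for levels, and cover counting error only.

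C-type lectin receptors are surface proteins that bind sugars on microbes and on the body's own glycoproteins and pass them into the cell for breakdown and antigen presentation. The Cd209 genes are the mouse relatives of human DC-SIGN, a receptor for mannose- and fucose-rich glycans on dendritic cells (DCs). Mgl2 and Clec10a encode the galactose-type lectins CD301b and CD301a, which bind terminal galactose and N-acetylgalactosamine and are used to mark subsets of type 2 conventional DCs and some macrophages. In the thymus, DCs and macrophages take up dying thymocytes and present self antigen to developing T cells.

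The 6 genes lie in 2 clusters of the genome. On chromosome 8 of GRCm38, all on the minus strand, are Cd209a (3743397 to 3748984), Cd209e (3847965 to 3854309), Cd209d (3871824 to 3878555) and Cd209f (4102787 to 4105835). On chromosome 11, both on the plus strand, are Mgl2 (70130329 to 70137550) and Clec10a (70156197 to 70170834). A 3′ assay counts transcript ends, so near-identical ends can exchange counts. No window of 30 bases in the last 500 bases of the Cd209a, Cd209d or Cd209e transcripts was found in another gene of the 2 families. Of such windows Cd209f shared 41.7% with Cd209g, Clec10a 22.3% with Mgl2 and Mgl2 15.5% with Clec10a. At 90 bases the shares were 29.1%, 5.46% and 1.26%, so counts of these 3 genes are less certain.

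Promoter windows from RefSeq (GRCm38.p6) were at hand for 5 of the 6 genes. Those of Cd209a, Cd209d and Cd209e are shown because they share a run of bases, and each runs from 250 bases before the start to 20 after it. Capitals mark the longest such run, TTTCTCTTCCTA, which was noticed by eye before it was searched for.
Cd209a, chr8:3748965-3749234, minus strand: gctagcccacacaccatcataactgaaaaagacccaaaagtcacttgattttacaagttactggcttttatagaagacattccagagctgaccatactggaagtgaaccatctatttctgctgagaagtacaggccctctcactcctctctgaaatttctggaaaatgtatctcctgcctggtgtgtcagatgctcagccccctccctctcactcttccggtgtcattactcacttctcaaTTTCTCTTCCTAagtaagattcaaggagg
Cd209d, chr8:3878480-3878749, minus strand: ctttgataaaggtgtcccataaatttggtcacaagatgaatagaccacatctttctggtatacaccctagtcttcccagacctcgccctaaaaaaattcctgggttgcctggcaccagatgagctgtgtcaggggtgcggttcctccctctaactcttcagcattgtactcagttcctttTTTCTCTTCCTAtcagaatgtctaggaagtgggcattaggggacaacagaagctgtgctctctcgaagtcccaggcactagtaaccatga
Cd209e, chr8:3854267-3854536, minus strand: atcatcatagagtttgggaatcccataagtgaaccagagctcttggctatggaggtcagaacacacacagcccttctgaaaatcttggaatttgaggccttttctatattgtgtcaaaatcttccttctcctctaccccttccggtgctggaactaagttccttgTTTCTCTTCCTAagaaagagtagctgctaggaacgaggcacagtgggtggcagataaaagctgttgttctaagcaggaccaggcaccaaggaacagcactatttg
The run of 12 bases starts 9 bases before the start in Cd209a, 70 before it in Cd209d and 85 before it in Cd209e. Searched on both strands, it is in 9 of 32851 promoter windows of 300 bases (0.0274%), and not in those of Cd209f or Mgl2. A shared run is a description of these letters and not a binding site.

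In the 2021 library 3188 of 3214 barcodes passed the cell filter, and 3185 cells with 13 clusters were kept after doublet calling. The clusters were made without the 6 genes. The choice not to scale genes was made with the members' UMIs by cluster in view, so the spread over named classes is not independent of them. Named from fixed marker lists, 771 cells were conventional DC-like, 426 macrophage-like, 451 monocyte-like, 338 neutrophil-like, 362 T lineage-like, 303 NK cell and innate lymphoid-like and 215 B lineage-like. The other 3 clusters (171, 46 and 102 cells) stayed unnamed. Fcgr1, the gene of the sorted protein CD64, stood at 116 UMIs per 1e6 (98.9 to 134) in macrophage-like and 5.35 (2.92 to 8.97) in DC-like cells, where its interval overlaps that of neutrophil-like cells (3.71, 1.01 to 9.50). All 10 conventional DC markers had UMIs in the DC-like class and the macrophage marker Mertk had 0 there. The name of the main DC-like cluster is weak. Its 662 cells had 6 of 10 conventional DC markers raised, but among its 10 leading genes stood only Flt3 of that list, beside Prg2, Epcam and Cox6a2, which are markers of eosinophils, epithelium and plasmacytoid DCs. In the whole class the summed conventional DC markers stood at 1114 UMIs per 1e6 (713 in macrophage-like cells). Monocyte markers stood at 1482 (7663 in monocyte-like cells), plasmacytoid DC markers at 1185 (1191 in macrophage-like cells) and thymic epithelial markers at 1041. Of the thymic epithelial list Krt5, Psmb11, Foxn1, Krt14 and Cldn3 had 0 UMIs. That list also holds the MHC class II gene H2-DMa, at 1130 and 1017 in the Cd209e and Mgl2 gates of DC-like cells described below. Its sum therefore need not reflect epithelial genes. The part of these lists in the results was not tested.

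Most transcripts of Cd209a, Cd209d, Cd209e, Mgl2 and Clec10a were in the conventional DC-like cells. Cd209a had 1412 UMIs there, which was 76.3% of its UMIs (interval 74.3 to 78.2%), in 771 of the 3185 cells. Those 771 cells held 2617893 of the 8505574 UMIs of all genes. The share was 87.8% for Cd209d (1199 UMIs), 88.3% for Cd209e (489 UMIs), 74.3% for Mgl2 (929 UMIs) and 65.7% for Clec10a (354 UMIs). Cd209f differed, with 0 UMIs in the 771 DC-like cells, which allows a share of up to 0.389% of cells with a UMI.

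These shares depend on how the class is drawn. When each gene was scaled before clustering, which was the version run first, the cluster of 688 cells that corresponds to the main DC-like one stayed unnamed, and only 134 cells were conventional DC-like. The DC-like share of UMIs was then 1.41% for Cd209a, 3.001% for Cd209d, 1.62% for Cd209e, 3.36% for Mgl2 and 1.11% for Clec10a. That unnamed cluster, which shares 614 cells with the DC-like class, held 79.1% of the Cd209a, 83.2% of the Cd209d, 85.7% of the Cd209e, 77.9% of the Mgl2 and 73.1% of the Clec10a UMIs. With a class set in each cell by counting markers, 242 cells were conventional DC-like and held 18.9% of the Cd209a, 21.4% of the Cd209d, 19.3% of the Cd209e, 24.9% of the Mgl2 and 13.2% of the Clec10a UMIs. Other classes then held more. Monocyte-like cells had 27.7% of the Cd209a and 40.4% of the Clec10a UMIs, and the 399 cells left unassigned had 34.97% of the Cd209a and 39.7% of the Cd209d UMIs. At clustering resolution 1.0 the Cd209a share was 48.5% and the Clec10a share 37.7%, and a cluster of 166 cells led by Prg2 and Prss34, plasmacytoid DC-like by the same rule, then held 501 Cd209a UMIs. The 5 genes were thus concentrated in 1 large group of cells with and without scaling at resolution 0.5, while the markers do not settle its name.

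**Figure D1:**
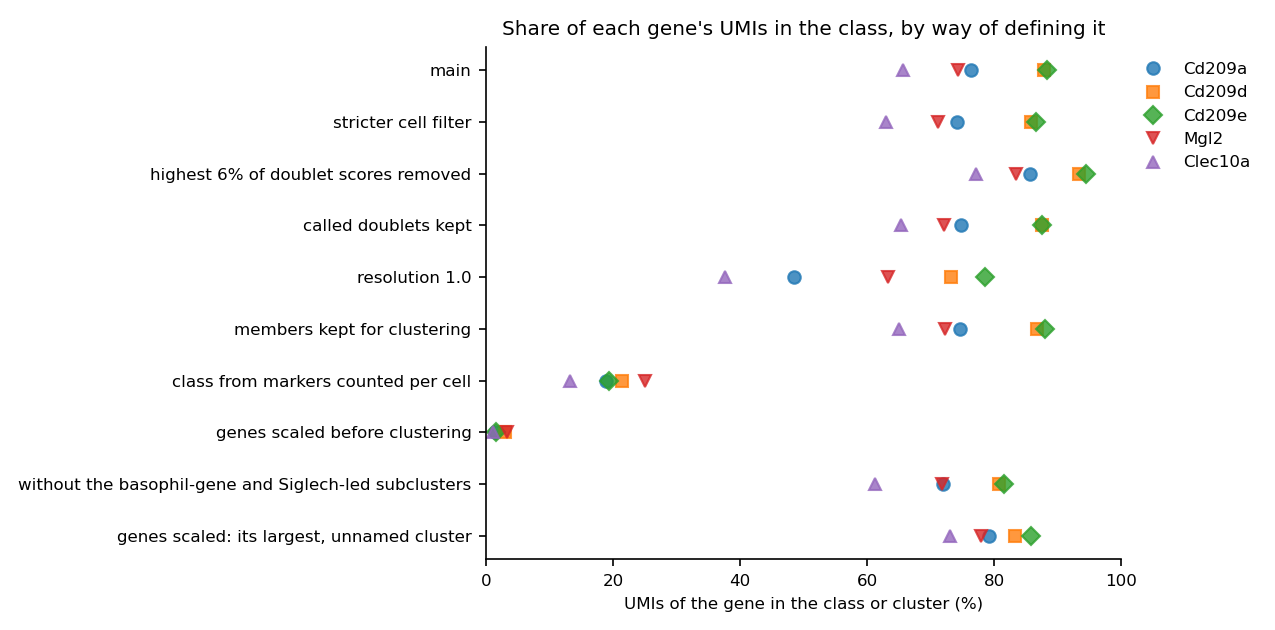
Share of each gene's UMIs (percent, x axis) in conventional DC-like cells under each way of defining the class (rows); the lowest row gives the largest, unnamed cluster of the scaled clustering. The 5 genes lie between 65.7% and 88.3% in the first row and at 3.36% or less where genes were scaled and the large cluster lost its name.

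Levels are in CPM (the gene's UMIs in a class, scaled to 1e6 UMIs in all) and are compared between classes for 1 gene at a time. Cd209a stood at 539 CPM (512 to 568) in DC-like, 185 (164 to 208) in macrophage-like and 25.6 (16.4 to 38.1) in monocyte-like cells. Neutrophil-like cells, taken as a guide to the level of free RNA or stray calls, had 4.64 CPM. That guide depends on the class taken. B lineage-like cells had 22.6 CPM (11.3 to 40.4), which overlaps the monocyte-like level, and T lineage-like cells had 0 UMIs. The order DC-like, macrophage-like, monocyte-like held beyond counting error here. At resolution 1.0 the last pair turned, with 93.2 CPM in macrophage-like and 138 in monocyte-like cells. With markers counted per cell it turned as well, at 116 CPM (94.7 to 141) and 213 (194 to 232). The dividing unnamed cluster of 102 cells, at 189 CPM (157 to 226), overlapped the macrophage-like class.

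Cd209d stood at 458 CPM (432 to 485) in DC-like and 63.2 (51.0 to 77.5) in macrophage-like cells, and at 2.13 in monocyte-like cells (2 UMIs). Neutrophil-like cells gave 17.6 CPM, but 18 of their 19 UMIs were in 1 cell. Cd209e stood at 187 CPM (171 to 204) in DC-like and 30.6 (22.3 to 41.0) in macrophage-like cells and had 0 UMIs in the 451 monocyte-like cells. For both genes the DC-like level lay above every other class of this clustering beyond counting error. In macrophage-like cells 3 of 24 positive cells held at least 50% of the 93 Cd209d UMIs, and 3 of 14 did so for the 45 Cd209e UMIs. Over 7 other settings the macrophage-like level ran from 5.59 to 66.2 CPM for Cd209d and from 3.73 to 29.3 CPM for Cd209e. With markers counted per cell monocyte-like cells stood above macrophage-like ones, at 88.0 against 41.0 CPM for Cd209d and 49.0 against 10.2 for Cd209e. The neutrophil-like level of Cd209e was 2.78 CPM in the settings of the report.

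Mgl2 stood at 355 CPM (332 to 378) in DC-like and 171 (151 to 194) in macrophage-like cells, and at 5.33 (1.73 to 12.4) in monocyte-like cells, no higher than the 9.28 of neutrophil-like cells. Clec10a had the flattest profile of the 5, with 135 CPM (122 to 150) in DC-like, 87.1 (72.6 to 104) in macrophage-like and 28.8 (18.98 to 41.9) in monocyte-like cells, against 0.928 in neutrophil-like cells. Monocyte-like cells thus lay above neutrophil-like ones for Clec10a and not for Mgl2, but at resolution 1.0 Mgl2 stood at 107 CPM in monocyte-like cells.

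Cd209f had 18 UMIs in 10 cells. The macrophage-like class held 15 of them, 10.2 CPM (5.71 to 16.8), and 13 of those were in a cluster of 53 cells led by Vcam1, a cell adhesion molecule, with Spic, a regulator of iron-recycling macrophages, among its leading genes. In that cluster Cd209f stood at 107 CPM (56.9 to 183) while Cd209d, Cd209e and Mgl2 had 0 UMIs and Cd209a and Clec10a 1 each. The other 2 UMIs outside neutrophil-like cells were in 1 cell of an unnamed cluster led by Pf4 and Prg4.

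**Figure D2:**
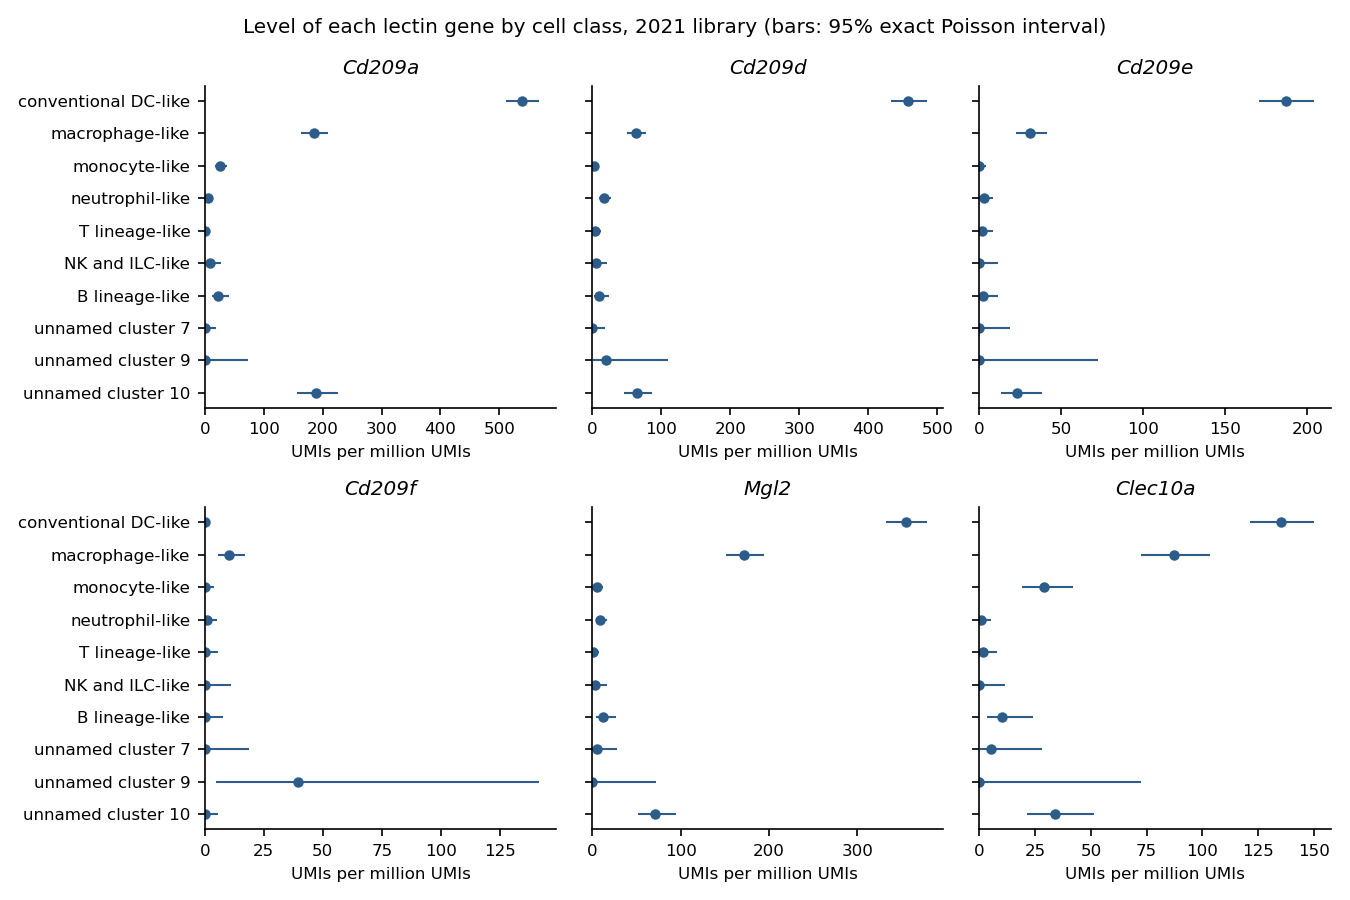
Level (UMIs per 1e6 UMIs, x axis, from 0, scaled per panel) of each gene in each cell class (y axis); points are levels and bars exact Poisson intervals. In this clustering, which has no plasmacytoid DC-like class, all but Cd209f peak in conventional DC-like cells, at 539, 458, 187, 355 and 135 CPM, and Cd209f has 0 UMIs there.

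Where a plasmacytoid DC-like class was formed, the peak moved to it for some genes and not for others. With markers counted per cell, Cd209d stood at 899 CPM (779 to 1032) in the 69 plasmacytoid DC-like cells and 340 (302 to 381) in conventional DC-like ones, and Cd209e at 264 (201 to 340) and 124 (102 to 150). Cd209a (599 against 406 CPM) and Clec10a (165 against 82.3 CPM) were also higher there beyond counting error, while the intervals of Mgl2 overlapped (402 and 362 CPM). At resolution 1.0 the plasmacytoid DC-like cluster had 1026 CPM of Cd209a against 433 in conventional DC-like cells, and 301 of Clec10a against 97.9. Cd209d, Cd209e and Mgl2 did not peak there (406, 111 and 248 CPM against 482, 210 and 382).

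All 5 genes with at least 50 UMIs were at least 2-fold higher in DC-like than in all other kept cells. Of the 8814 genes with that many UMIs, 4.31% were. The members, and the clustering and naming rule behind the class, were chosen with results of these data in view. The count of 5 is therefore a description and is not independent of that choice. The log2 ratios were 2.86 for Cd209a, 4.01 for Cd209d, 4.08 for Cd209e, 2.70 for Mgl2 and 2.11 for Clec10a. Other C-type lectins and related receptors had another pattern. Of 18 measured, 1 was at least 2-fold higher, Clec9a, the receptor for dead cells on type 1 conventional DCs (log2 ratio 2.27), and 9 were at least 2-fold lower, where 16.3% of all genes were. The list median was -1.05, against -0.19 over all genes. Among the 9 were Clec4e, the receptor Mincle (1.91 against 86.5 CPM), Clec4d (log2 ratio -5.12) and Clec4a2 (log2 ratio -2.43).

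The DC-like cells were then clustered again, with the 6 genes left out. This step was chosen after the data had been seen. The 7 subclusters were led by Ccr7, Ccl22 and Fscn1, genes of mature migratory DCs (105 cells), by Ifit3 and Plet1 (127 cells), by Prg2 and the basophil protease gene Mcpt8 (55 cells), by Retnla with Lyz2 (217 cells), by genes that included Xcr1, the chemokine receptor of type 1 conventional DCs (78 cells), by Timd4, a phosphatidylserine receptor (144 cells), and by Ly6d with Siglech, a plasmacytoid DC gene (45 cells). Of the 12 genes listed for type 1 conventional DCs, 8 were raised in the Xcr1-led subcluster. Of the 16 listed for plasmacytoid or transitional DCs, 14 were raised in the Ly6d-led one. The DC-like class is thus mixed.

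Cd209d and Cd209e peaked together in the Timd4-led subcluster. Cd209d stood there at 1586 CPM (1482 to 1695), with 72.6% of its DC-like UMIs, then at 728 (582 to 899) in the Ly6d-led and 273 (236 to 315) in the Retnla-led subcluster. Cd209e stood at 704 CPM (635 to 777) in the Timd4-led subcluster, with 78.9% of its DC-like UMIs, then at 220 (144 to 323) in the Ly6d-led one and at 73.1 or less in the other 5. Both gaps to the next subcluster exceed counting error.

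Cd209a was highest in the Retnla-led subcluster, at 1029 CPM (955 to 1106). It followed at 676 (609 to 749) in the Timd4-led, 593 (462 to 749) in the Ly6d-led and 459 (399 to 524) in the Ifit3-led subcluster, where neighbours overlap within counting error. Mgl2 was spread over 3 subclusters, with 640 CPM (575 to 710) in the Timd4-led, 461 (401 to 527) in the Ifit3-led and 445 (397 to 497) in the Retnla-led one. Clec10a stood at 245 (210 to 284) in the Retnla-led and 239 (200 to 283) in the Timd4-led subcluster, which overlap, but at only 51.7 (33.1 to 76.9) in the Ifit3-led one. The Ifit3-led cells, in which 10 of the 11 measured interferon response genes were raised, thus carried Cd209a and Mgl2 with little Cd209d, Cd209e or Clec10a.

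Type 1 and mature DCs had little of any. In the Xcr1-led subcluster Cd209d, Mgl2 and Clec10a had 0 UMIs, which allows up to 8.99 CPM, Cd209a stood at 29.97 and Cd209e at 8.99 CPM. In the Ccr7-led subcluster Mgl2, at 64.0 CPM, was the highest. At sub-clustering resolution 1.0 most peaks fell in subclusters named by other leading genes. The highest level of Cd209d, 1810 CPM (1666 to 1963), was in 84 cells led by Pi16, above the 1231 (1098 to 1376) of the 67 cells then led by Timd4. The Pi16-led cells also had the highest Clec10a (323 CPM, 264 to 391), Cd209e (761 CPM, 668 to 862) and Mgl2 (705 CPM, 616 to 803) levels. For these genes the next subcluster overlapped within counting error. It was led by Timd4 for Cd209e (634, 539 to 740) and Mgl2 (570, 480 to 671), and by Ifitm6 for Clec10a (280, 238 to 327). Cd209a was then highest in 167 cells led by Ifitm6, at 1096 CPM (1011 to 1186), and stood at 630 (475 to 820) in the 34 cells led by Retnla. Pi16, Cd200r1, Cyp7b1, Trf and Gm14161, which led the Pi16-led cells, were also leading genes of the Timd4-led subcluster at resolution 0.5. Ifitm6 was likewise a leading gene of the Retnla-led one. How far the subclusters of the 2 resolutions share cells was not tested. The name given to the place of a peak holds for resolution 0.5 only.

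**Figure D3:**
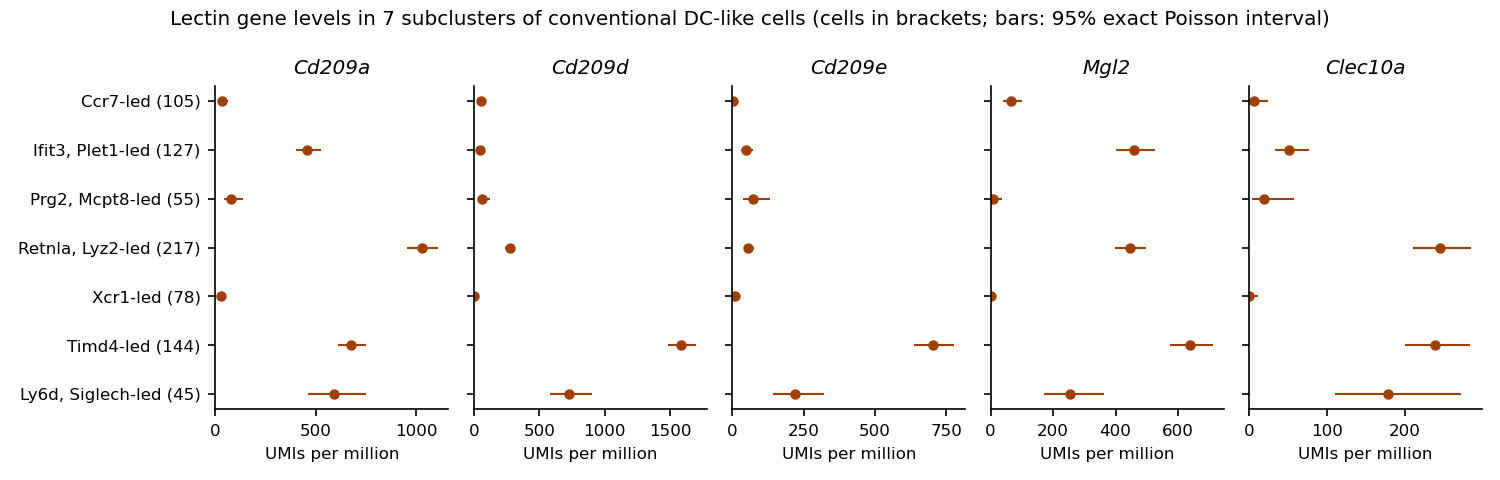
Level (UMIs per 1e6 UMIs, x axis, from 0, scaled per panel) of 5 lectin genes in the 7 subclusters of conventional DC-like cells (y axis, named by leading genes, cells in brackets); bars are exact Poisson intervals. Cd209d and Cd209e peak in the Timd4-led subcluster at 1586 and 704 CPM, Cd209a in the Retnla-led one at 1029, and all 5 are at 29.97 CPM or less in the Xcr1-led one.

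Per-cell overlap was read in cells thinned to 2000 UMIs, which kept 684 of the 771 DC-like cells. A UMI was found for Cd209a in 42.8% (39.1 to 46.6%), Mgl2 in 33.8% (30.2 to 37.5%), Cd209d in 25.7% (22.5 to 29.2%), Clec10a in 18.7% (15.9 to 21.8%) and Cd209e in 15.8% (13.1 to 18.7%) of them. The background shares in neutrophil-like cells were 1.53% or less. Unthinned, the shares ran from 18.2% for Cd209e to 46.7% for Cd209a. Of the thinned cells 38.0% had none of the 6 genes, 21.5% had 1, 40.5% (36.8 to 44.3%) had 2 or more, and 20 cells (2.92%) had all 5 that the class expressed. The commonest sets were Cd209a alone (70 cells), Mgl2 alone (51 cells) and Cd209a with Mgl2 (35 cells).

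Every one of the 10 pairs was found together more often than independent detection would give, from 1.40 times (1.18 to 1.66) for Cd209a and Mgl2 to 2.73 times (2.15 to 3.42) for Cd209d and Cd209e. A Cd209d UMI was present in 76 of 108 cells with Cd209e (70.4%) and in 17.4% of cells without it. A Cd209a UMI was present in 60.2% of cells with Mgl2 and in 33.996% of those without.

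Within a subcluster the ratio has less room, since it is bounded where detection is common, and a value near 1 does not show that overlap is absent. In the Timd4-led subcluster the ratio of Cd209d and Cd209e was 1.16 (0.885 to 1.49), and Cd209d was found in 80.0% (69.2 to 88.4%) of cells with Cd209e and 56.7% (44.0 to 68.8%) of those without. Cd209a was found in 66.3% (56.1 to 75.6%) of cells with Cd209d and in 11 of 44 without (13.2 to 40.3%). For both pairs these intervals do not overlap. The same held for Cd209d by Clec10a, at 85.1% (71.7 to 93.8%) with and 61.1% (50.5 to 70.9%) without. It also held for Cd209a by Cd209e, at 65.3% (53.5 to 76.0%) with and 40.3% (28.5 to 53.0%) without. For the other pairs there such intervals overlapped. All 10 pairs had ratios of 1.03 to 1.29 there, with intervals that include 1. The ratio intervals do not hold the number of cells with each gene fixed, so they are wide where detection is common. In the Retnla-led subcluster the ratios ran from 1.07 to 1.90, again with intervals that include 1. Yet Cd209a was found there in 84.8% (73.9 to 92.5%) of cells with Clec10a and 63.4% (54.7 to 71.6%) without. For most other pairs there the with and without intervals overlapped. The difference between these ratios and those over all DC-like cells was not tested.

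**Figure D4:**
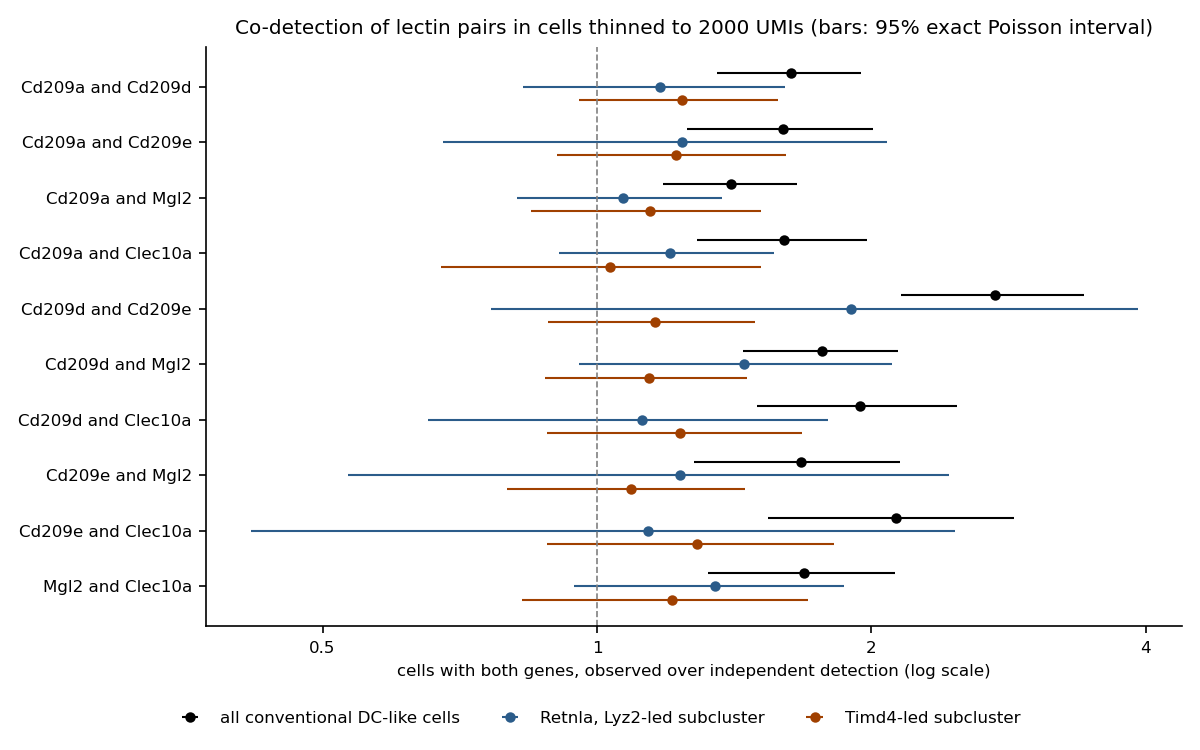
Cells with a UMI of both genes, observed over the number independent detection would give (x axis, log scale), for 10 lectin pairs (y axis) in all thinned conventional DC-like cells and in 2 subclusters; bars are exact Poisson intervals. Over all cells Cd209d and Cd209e stand at 2.73, and at 1.16 within the Timd4-led subcluster.

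Which macrophage-like cells carried the genes was read from the complement genes C1qa, C1qb and C1qc, whose products mark tissue macrophages. Their summed level was 1693 CPM (1559 to 1836) in the 68 macrophage-like cells with Cd209a and 5690 (5552 to 5832) in the 358 without. It was 974.5 CPM in the 24 cells with Cd209d against 5183 without, and 1838 CPM in the 67 cells with Clec10a against 5586 without. For Mgl2 it was 3777 CPM in 90 cells against 5131. The 8 cells with Cd209f went the other way, at 10031 CPM (9127 to 10999) against 4578, but these contrasts mix the C1q-rich Vcam1-led cluster with the larger Ccl12-led one. Within the Vcam1-led cluster the order turned, with 11395 CPM (10119 to 12787) in 6 cells with Cd209f and 14723 (13967 to 15510) in 47 without. Within the Ccl12-led cluster the Mgl2 intervals overlapped, at 3777 CPM (3593 to 3968) with and 3965 (3838 to 4096) without. There the gap stayed for Cd209a (1680 against 4671 CPM), Clec10a (1614 against 4625 CPM) and Cd209d (974.5 against 4282 CPM). Conventional DC markers were no higher in the cells with Cd209a (615 CPM, 536 to 703) than without (743 CPM, 693 to 795). At resolution 1.0 a cluster of 263 cells led by Cxcl9, monocyte-like by the same rule, held 226 Cd209a UMIs, so the macrophage-like Cd209a level rests on where that cluster is placed.

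What goes with Cd209e as against Mgl2 in DC-like cells was read from a pair of gates. The Cd209e gate took the 57 cells with a Cd209e UMI and none of Mgl2 (median 3642 UMIs), and the Mgl2 gate the 193 with the converse (median 3543 UMIs). A further 83 cells had both and 438 neither. Of the other members Cd209d was higher in the Cd209e gate (1004 against 380 CPM), while Cd209a (731 against 751 CPM) and Clec10a (165 against 155 CPM) had overlapping intervals. The gates differ in subcluster: 31 of 57 cells of the Cd209e gate and 25 of 193 of the Mgl2 gate were Timd4-led. In the same order 7 and 94 were Retnla-led, 7 and 62 Ifit3-led, and 0 and 6 Ccr7-led. A further 6 and 5 were Ly6d-led, 4 and 1 Prg2-led, and 2 and 0 Xcr1-led.

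Of 4705 genes compared, 5.76% were at least 2-fold higher in the Cd209e gate and 9.8% in the Mgl2 gate, and the counting interval excluded equal levels for 266 and 271 genes. With 57 cells many 2-fold differences are within counting error. Among the genes with the largest ratios towards Cd209e were Ccl4, a chemokine (236 against 24.8 CPM, log2 ratio 3.25, interval 2.43 to 4.14), Cd8b1 (3.18), Gm14161 (3.13), Cyp7b1, an oxysterol hydroxylase (2.89), Cd8a (260 against 38.0 CPM, 2.78), the nuclease gene Dnase1l3 (2.69), Snx21 (2.57), Siglech (2.40) and Pwwp3a (2.15).

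Towards Mgl2 they were Axl, a receptor for dying cells (-3.63, from 1 UMI in the Cd209e gate, interval -8.97 to -1.07), the C-type lectin gene Clec4a3 (-3.41, -6.49 to -1.51), the elastase gene Mmp12 (-2.80, -4.70 to -1.39) and the adaptor gene Myd88 (-2.80, -5.89 to -0.86). The others were AA467197 (-2.48, -3.72 to -1.46), Parp14 (-2.48, -5.58 to -0.52), Atg101 and Gdpd3 (both -2.43, -5.54 to -0.47) and Clec4b1 (-2.34, -4.66 to -0.70). All but Mmp12 and AA467197 had 3 UMIs or fewer in the Cd209e gate. Ccl22 had 0 UMIs in the Cd209e gate and 80.3 CPM in the Mgl2 gate, with 28 of its 55 UMIs in 1 cell. Set against a floor of 3 counts over the gate, its log2 ratio is -2.50 or lower. Within the Timd4-led subcluster alone the log2 ratio was 3.91 for Ccl4 but 1.10 for Cd8a, 1.01 for Gm14161 and 0.48 for Cyp7b1. With the highest 6% of doublet scores removed the Ccl4 ratio was 1.97.

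**Figure D5:**
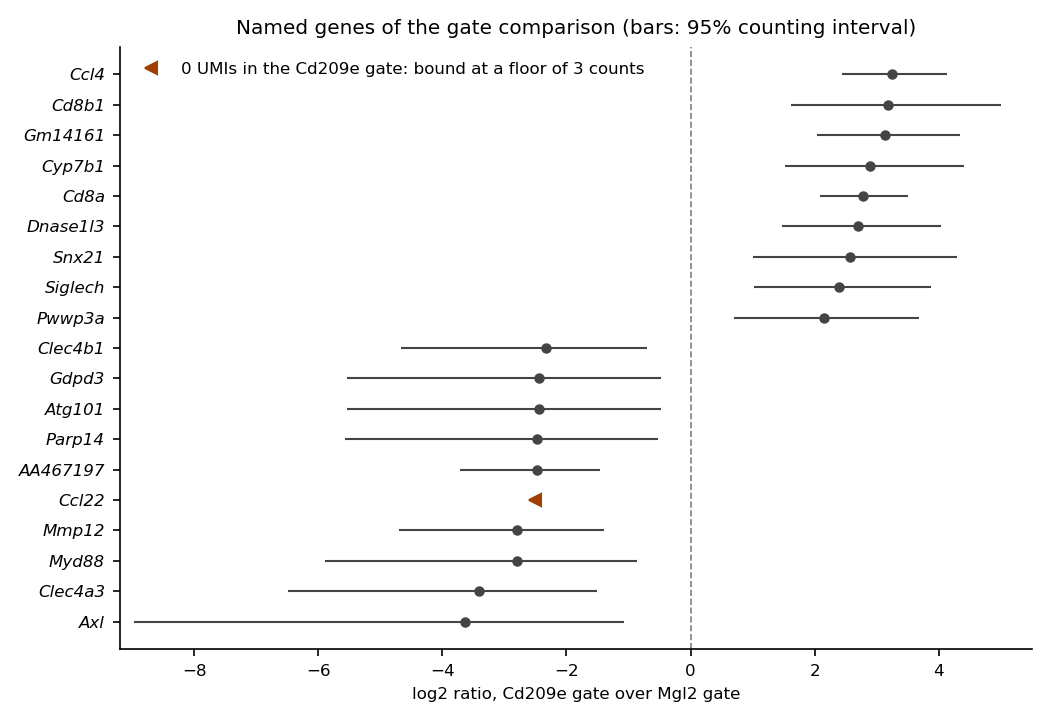
Log2 ratio of summed counts, Cd209e gate over Mgl2 gate (x axis), for the named genes (y axis); bars are counting intervals and the triangle is a bound at a floor of 3 counts. Ccl4 stands highest at 3.25 and Axl lowest at -3.63.

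Of the fixed lists, genes of plasmacytoid or transitional DCs were higher in the Cd209e gate. Of 14 measured, 8 were at least 2-fold higher and 0 lower, where 5.76% and 9.8% of all genes compared were. The median log2 ratio was 1.09 against -0.0059 over all genes compared. The interval lay above equal levels for 7 of the 14, against 5.65% over all genes, and below for 0. The 8 included Tcf4, the master regulator of plasmacytoid DCs (388 against 134 CPM), Ly6d (1.54) and Ly6c2 (1.36). For Spib (-0.29 to 2.25) and Ccr9 (-0.24 to 2.50), also among the 8, the interval includes equal levels. The median was 0.69 without the Prg2-led and Ly6d-led subclusters, 0.51 within the Timd4-led one and 0.35 at resolution 1.0. Other C-type lectins had 0 of 10 at least 2-fold higher and 3 lower, against 5.76% and 9.8% over all genes. The 3 were Clec4a3, Clec4b1 and Clec4a2, and the list median was -0.83. Type 2 cytokine response genes had 3 of 11 at least 2-fold lower, against 9.8% over all genes, with a median of -0.76. Among the 3 was Ccl17, a chemokine that draws CCR4+ cells (118 against 425 CPM). The mature DC list, which shares Ccl17 and Ccl22 with that list, had 2 of 12 at least 2-fold lower, against the same 9.8%. It had 5 genes with an interval below equal levels and 2 above, and also a median of -0.76. Interferon response genes had 4 of 11 at least 2-fold lower (median -0.90), where 9.8% of all genes compared were. The intervals of all 4 include equal levels. Of the 11, 1 had an interval below equal levels and 1 above. The part that the Ccr7-led and Ifit3-led cells of the Mgl2 gate play in these lists was not tested. Of 11 MHC class II genes 1, H2-Ob, was at least 2-fold higher in the Cd209e gate, where 5.76% of all genes compared were. Of these MHC genes 5 had an interval above equal levels and 0 below, against 5.65% above over all genes. Their median was 0.15, and Cd74 stood at a log2 ratio of 0.0083.

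Genes whose level over 17 clusters at resolution 1.0 was most like that of each member, by Pearson's r of log2(CPM + 10), were named from 6061 genes as a description. For Cd209a they were Bcl11a (r = 0.92), Kmo, Olfm1, H2-DMb1 and Aqp3 (0.90), for Cd209d Gm14161 (0.92), Aqp3, Fcor, Flt3 and Zbtb46, and for Cd209e Aqp3 (0.94), Gm14161, Kmo, Sept3 and Anpep. For Mgl2 they were Anpep (0.94), Spint1, Kctd14, Tnip3 and H2-Ab1, and for Clec10a Bcl11a (0.89), Gng10, Kmo, Nfkb1 and Arhgap27os2. Among the members themselves r was 0.94 for Cd209a with Mgl2 and with Clec10a, and 0.92 for Cd209d with Cd209e. The clusters share 1 library and differ in depth, and no test was made.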

How the data were processed

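CD64+ thymus cells were profiled in 1 library from 2021 and 1 from 2024. The deposited matrices hold UMI counts per gene and barcode, made by the authors with Cell Ranger 6.0.0 (2021) and 8.0.0 (2024) on mm10, per the submitters' processing notes. The 2021 matrix has 8534578 UMIs in 3214 barcodes (median 2157.5 per barcode), the 2024 matrix 24569270 UMIs. Cells needed 500 UMIs, 300 genes and at most 10% mitochondrial UMIs. Scrublet called 3 doublets (0.0941%), too few for the caller to have worked, so most doublets may remain. Counts were scaled to 10000 per cell and logged, and 2000 variable genes without the 6 members gave 30 components, 15 neighbours and Leiden clusters at resolution 0.5 (scanpy 1.11.5). A cluster was named for the marker list with the largest share of genes raised 2-fold, if at least 3 were raised and no other list had more genes among its 10 leading genes.

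Scaling each gene was tried first and left the main cluster unnamed. It was dropped with cluster names and the members' UMIs in view, and the naming rule's details were set with that result known. The 6 members, lists and markers were likewise chosen with earlier results of these data known. Sub-clustering of DC-like cells was added after seeing the data, and resolutions 0.5 and 1.0 were both looked at. Shares and co-detection used cells thinned to 2000 UMIs, leaving out 1439 of 3185. Gate genes needed 15 UMIs in all, and those named are the 10 with the largest log2 ratio each way among genes at 50 CPM or more in the higher gate, of which 1 is not reported here. Likeness was taken over genes with at least 50 UMIs. Ribosomal, mitochondrial and receptor segment genes were not named. Steps were tested on simulated data. With 1 library no test between groups was made.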

Additional observations from a re-analysis of the deposited data

How the results depend on the processing

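The definition of the DC-like class moved most values. With genes scaled before clustering (134 cells) the share of UMIs in DC-like cells was 1.41% for Cd209a, 3.001% for Cd209d, 1.62% for Cd209e, 3.36% for Mgl2 and 1.11% for Clec10a, the levels were 64.7, 102, 22.4, 105 and 14.9 CPM, and the thinned shares 1.92, 9.62, 1.92, 10.6 and 0.962%. Co-detection was then 5.20 for Cd209d with Cd209e, 9.45 for Cd209a with Mgl2, and 0 for Clec10a with Cd209a or Mgl2, and the gate counts were 29 and 48. With markers counted per cell the shares of UMIs were 18.9, 21.4, 19.3, 24.9 and 13.2%, the levels 406 (Cd209a), 340 (Cd209d), 124 (Cd209e) and 82.3 CPM (Clec10a), the thinned shares 28.6% (Cd209a), 12.4% (Cd209e) and 14.8% (Clec10a), the ratio of Cd209a with Mgl2 1.78, the gate counts 164 and 258, and the interferon list's median 0.24. At resolution 1.0 the shares of UMIs were 48.5, 73.2, 78.5, 63.3 and 37.7%, the levels 433 (Cd209a), 210 (Cd209e), 382 (Mgl2) and 97.9 CPM (Clec10a), and the thinned shares 36.7% (Cd209a) and 14.8% (Clec10a). With the highest 6% of doublet scores removed the shares of UMIs were 85.7, 93.3, 94.5, 83.3 and 77.1% and Mgl2 stood at 381 CPM. The stricter cell filter gave 74.1% (Cd209a), 85.8% (Cd209d) and 71.2% (Mgl2), and leaving out the Prg2-led and Ly6d-led subclusters 71.9% (Cd209a), 80.7% (Cd209d), 81.6% (Cd209e) and 61.2% (Clec10a). Thinned to 1000 UMIs the shares were 30.1, 19.9, 9.80, 20.9 and 11.4%, and without thinning 46.7% (Cd209a) and 22.8% (Clec10a). At sub-clustering resolution 1.0 the peaks, in subclusters named by other leading genes, were 1810 CPM for Cd209d and 323 CPM for Clec10a. Within the Timd4-led subcluster the gate counts were 107 and 88 and the MHC class II median -0.11. In the gate comparison the median log2 ratio of the type 2 conventional DC list, -0.026 in the settings of the report, was 0.0023 under the stricter filter, 0.014 with members kept for clustering, 0.021 under median-of-ratios scaling and 0.16 with gates from thinned cells. The cell cycle median was 0.25 in the settings of the report and -0.56 under the stricter filter. Fewer cells or genes enter several of these settings, and otherwise the cause was not tested. Values were also counted once per setting. Of the class, co-detection and gate totals, 146 moved by less than their counting interval or set tolerance and 69 by more. Of the single genes, pairs, lists and levels in macrophage-like and monocyte-like cells, 351 moved by less, 60 by more and 9 reversed. Not every moved value is given here. No paired analysis was possible because gene values came from 1 library. A 2000-UMI cell leaves low transcripts undetected, so shares of cells are lower limits on expressing cells apart from free RNA.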

Other observations

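Of the 5 relatives of the described genes with any UMI in kept cells, none was abundant. Cd209b had 22 UMIs, Cd209c 9, Cd209g 2, Asgr1 1 and Asgr2 10 over 3185 cells. Among the 13 genes listed for C-type lectin signalling, 12 had enough UMIs to compare DC-like cells with the rest. Lsp1, a leukocyte actin-binding protein, stood at a log2 ratio of 1.21 and Syk, the kinase downstream of many lectin receptors, at -1.20, and the list median was -0.38.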
